A study of Drosophila melanogaster with 140 samples.

Results

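The genes described here are the fly counterparts of the human genes of amyloid processing, amyloid clearance and tau: Appl, tau, Psn, Nct (nicastrin, also written nct), Nep1, Nep2, Nep3, Nep4, Nep5 and Ide. They were chosen by symbol and are 10 of the 17562 genes in the deposited table of raw counts. All 10 were found in it. The annotation (dm6) places Appl on X 530501 to 579044, tau on 3R 27639886 to 27656996, Psn on 3L 20432468 to 20435156, Nct on 3R 24851601 to 24854869 and Ide on 3L 20371672 to 20375896. Nep1 lies on X 6091205 to 6103971, Nep2 on 3R 4719458 to 4731878, Nep3 on X 19961297 to 19969323, Nep4 on 3R 20652567 to 20659904 and Nep5 on 3R 27057908 to 27064199. Exons of HDAC11, on the opposite strand, cover 12.9% of the Nct exons, and exons of Mipp2 cover 5.57% of those of Nep1. Whether the counting used strand is not given in the sources used here, so reads in these overlaps cannot be assigned to 1 gene with certainty.

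The study followed the RNA modification m6A, which the methyltransferase Mettl3 writes on mRNA, in male flies with age and in an Alzheimer's disease model. Whole heads for m6A-IP sequencing came from flies in which the ubiquitous driver daGal4 expressed RNAi against mCherry (control) or against Mettl3 (also called Ime4), at 5d and 34d, with 3 replicates of 200 heads per group, each giving an input and an m6A-IP library. In the disease model the neuronal driver elavC155-Gal4 expressed human Aβ42 from UAS-Aβ42 (2x) or, in the control, the membrane protein UAS-mCD8-GFP, at 6d. Brains gave 3 libraries per group, and heads gave 3 control and 2 Aβ42 pairs of input and m6A-IP (a further Aβ42 head pair is not analysed here). Sorted brain cells came from flies with elav(3A)-Gal4 or repo-Gal4 driving UAS-mCD8-GFP and either RNAi, at 5d and 34d. They comprise elavGFP+ cells, labelled by the neuronal driver, with 3 libraries at 5d and 4 at 34d, and repoGFP+ cells, labelled by the glial driver, and the unlabelled repoGFP- cells, with 3 libraries per group. Translating ribosome affinity purification (TRAP) used the same drivers with UAS-RPL3-FLAG and either RNAi, at 5d and 34d. It was designed to pull ribosome-bound RNA of neurons or glia from brain lysates, with 3 or 4 pairs of TRAP-IP and input per group. The Gal4 driver is carried by the controls too, as is UAS-mCD8-GFP in sorted cells and UAS-RPL3-FLAG in TRAP. In the Aβ42 set the controls carry UAS-mCD8-GFP in place of UAS-Aβ42.

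As background, Appl is the single fly member of the amyloid precursor protein family, a neuronal membrane protein. The human precursor is cut by secretases to release Aβ peptides, and the last cut is made by the γ-secretase complex, of which Psn (presenilin) is the catalytic subunit and Nct a structural subunit, with aph-1 and pen-2 as the remaining partners. Neprilysins are zinc metallopeptidases that cleave short extracellular peptides, and human neprilysin and the insulin degrading enzyme (IDE in human, Ide in the fly) both degrade Aβ. Tau binds and stabilises axonal microtubules and is phosphorylated by kinases such as the GSK3 homolog sgg and Cdk5.

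Assigned counts per library ranged from 20141287 to 36361242 in the daGal4 head libraries, from 18527609 to 21351930 in the Aβ42 head set, from 17513035 to 22746821 in the Aβ42 brain set, from 10575300 to 21968057 in sorted cells and from 2132983 to 17891755 in TRAP. Levels are given as CPM (counts scaled to a common library total) after scaling by the trimmed mean of M values, and a gene was called changed at a Benjamini-Hochberg adjusted p below 0.05 over all genes tested (edgeR quasi-likelihood). Mettl3, the target of the RNAi, averaged 2.29 CPM in 34d Mettl3 RNAi heads against 6.85 CPM in control heads (log2 -1.59, adjusted p = 4.346e-08). At 5d it averaged 3.55 against 5.31 CPM and the difference did not pass the test (log2 -0.57, adjusted p = 0.468), so a reduction at 5d was not shown by these heads. In the 34d sorted cells it averaged 1.10 against 5.42 CPM in elavGFP+ cells (adjusted p = 0.339) and 1.24 against 8.85 CPM in repoGFP+ cells (adjusted p = 0.79). Summed glial markers reached 8710 to 14500 CPM in 5d control repoGFP+ cells and 605 to 666 CPM in repoGFP- cells, but the 9 neuronal markers were also abundant in repoGFP+ cells (7640 to 9690 against 10200 to 12600 CPM). In elavGFP+ cells the glial markers still summed to 4960 to 6890 CPM at 5d. The repoGFP+ and elavGFP+ libraries thus held RNA of both classes, and their values are given by gate rather than by cell type. The elavGFP+ libraries were a separate set from the repoGFP ones and were scaled apart, so values of these gates stand side by side without a test.

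Per kb of exon, Appl was the most abundant of the 10 genes in every group shown here. In the 6d control brains its level averaged 335.5 CPM per kb, followed by Nep4 at 80.94, tau at 42.67, Nep3 at 39.75, Ide at 37.3, Psn at 18.84, Nct at 13.05, Nep1 at 10.14, Nep2 at 7.43 and Nep5 at 0.04491. Neighbours in this order did not overlap among the 3 control brains. The order depended on the material: in 5d control elavGFP+ cells Appl (382.7 CPM per kb) was followed by tau (137.8) and Ide (101.1), and Nep4 stood eighth at 3.845. In 5d control heads Nep4 was again second at 48.03 CPM per kb, and Nep2, at 15.06, was followed by Nct (13.65), whose libraries overlapped with those of Nep2 and Nep3, and by Nep3 (12.52). Nep5 was close to the limit of counting, with 2 to 4 counts in each brain library of the Aβ42 set.

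In brains expressing Aβ42 the precursor-like gene Appl and the neprilysins Nep1, Nep2 and Nep4 were lower than in control brains, while the γ-secretase genes Psn and Nct and the peptidase Ide were higher. Of the 9 members tested 7 were called, 3 higher and 4 lower, against 31% of the 9759 genes tested in this comparison. Their median log2 fold change was -0.21, against 0.02 over all genes. All of the member changes were below 2-fold.

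Appl was at 1588, 1650 and 1886 CPM in the 3 Aβ42 brains and at 2095, 2119 and 2211 CPM in the 3 control brains. The groups did not overlap (log2 -0.33 ± 0.08 SE, adjusted p = 0.0147). For tau the values were 270.4, 286 and 339.5 CPM against 303, 309.7 and 316 CPM, an overlapping pair of groups with no called difference (log2 -0.05 ± 0.09, adjusted p = 0.679). Nct, the nicastrin subunit, stood at 49.9, 51.7 and 53.8 CPM in Aβ42 brains and 35.2, 38.9 and 39.7 CPM in controls, so that all Aβ42 brains were higher (log2 0.45 ± 0.07, adjusted p = 0.00265). Psn, the catalytic subunit, was at 44.0, 44.1 and 49.1 against 38.0, 38.3 and 39.4 CPM, again without overlap (log2 0.25 ± 0.07, adjusted p = 0.0289). Of the other γ-secretase subunits, aph-1 was also called higher (log2 0.35, adjusted p = 0.0146), whereas pen-2 did not pass (log2 0.49, adjusted p = 0.0738).

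Nep1 showed the largest member difference in brains. It was at 28.5, 30.6 and 34.3 CPM with Aβ42 and at 46.9, 49.4 and 49.5 CPM in controls (log2 -0.64 ± 0.08, adjusted p = 0.001). Nep2 followed with 14.2, 16.3 and 16.9 against 20.4, 21.3 and 28.2 CPM, the control spread being set by 1 library (log2 -0.56 ± 0.14, adjusted p = 0.0201). Nep4 was at 251, 266 and 291 CPM against 304, 328 and 343 CPM (log2 -0.27 ± 0.07, adjusted p = 0.0272). Each of these 3 neprilysins was lower in every Aβ42 brain than in any control brain. Nep3 did not overlap either, at 154, 158 and 188 against 190, 192 and 197 CPM, but was not called by edgeR (log2 -0.21 ± 0.08, adjusted p = 0.0792). DESeq2 called Nep3 lower (-0.22, adjusted p = 0.0437), as did edgeR without Aβ42 replicate 1 (-0.31, adjusted p = 0.000862). Nep5 was too low to be tested. Ide was at 140.5, 152 and 158 CPM against 119.7, 132 and 134 CPM (log2 0.23 ± 0.07, adjusted p = 0.0347).

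The call of Nct and that of Nep1 held when any single brain library was left out. Appl, Ide and Nep4 lost theirs without Aβ42 replicate 2, control replicate 1 or control replicate 3, Psn without any of these or control replicate 2, and Nep2 without Aβ42 replicate 2, control replicate 1 or control replicate 2 (adjusted p 0.0514 to 0.117), with every sign kept. Markers of other cell types differed between the groups: photoreceptor markers summed to 21900 to 27900 CPM in Aβ42 brains and 39300 to 43100 CPM in controls, glial markers to 2930 to 3410 against 3760 to 3850 CPM, neuronal markers to 7340 to 8730 against 9390 to 9620 CPM, fat body markers to 1800 to 3740 against 5340 to 6790 CPM and hemocyte markers to 372 to 506 against 736 to 843 CPM. Of these lists 3 of 5 photoreceptor, 5 of 9 glial, 4 of 9 neuronal, 1 of 3 fat body and 3 of 4 hemocyte markers tested were called lower, and none was called higher. Their part in the member changes was not tested, and in such bulk samples fewer cells of a type and less RNA per cell cannot be told apart.

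**Figure D1:**
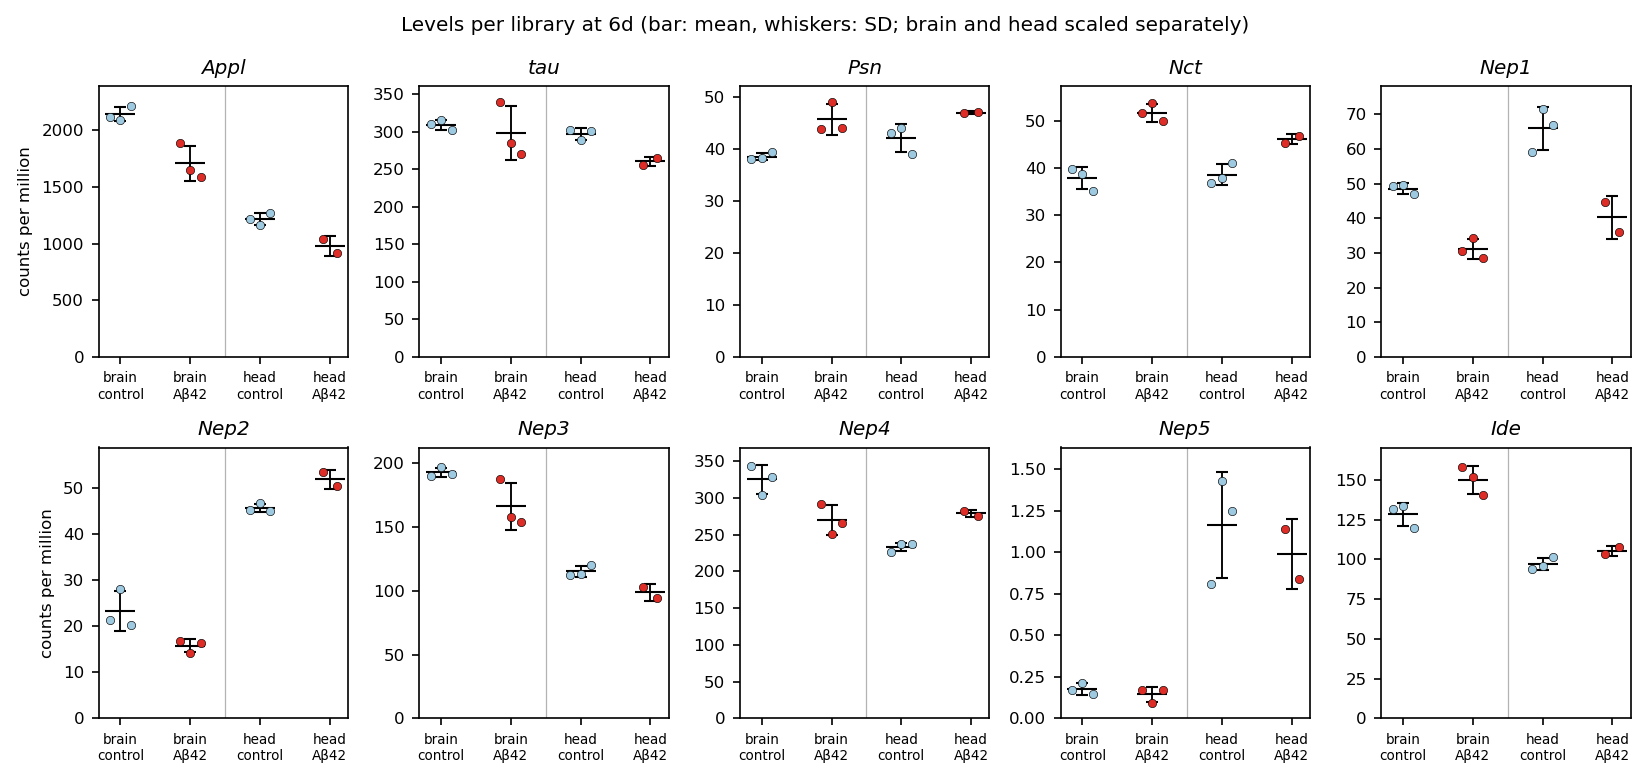
Level in CPM (linear axis from 0) of the member genes in each 6d brain and head input library, Aβ42 and mCD8-GFP control, with 1 point per library, the group mean as a bar and the SD as whiskers. Appl and Nep1 sit lower in every Aβ42 library of both tissues, Nct sits higher in both, and Nep4 sits lower in Aβ42 brains but higher in Aβ42 heads.

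In whole heads of the same genotypes 7 of 10 members were called, 3 higher and 4 lower, against 36% of the 10210 genes tested. Appl, Nep1, Nep3 and tau were lower and Nct, Nep2 and Nep4 were higher. Appl was at 919 and 1044 CPM in the 2 Aβ42 heads and 1160, 1216 and 1269 CPM in the 3 controls (log2 -0.31 ± 0.07, adjusted p = 0.00292). Nep1 was at 35.9 and 44.6 against 59.2, 67.0 and 71.7 CPM (log2 -0.71 ± 0.11, adjusted p = 0.000855). Both genes were lower without overlap, as in brains. Nct was at 45.4 and 46.9 CPM against 36.8, 37.9 and 41.1 CPM (log2 0.26 ± 0.07, adjusted p = 0.0121), and tau at 256 and 265 against 288, 302 and 302 CPM (log2 -0.19 ± 0.07, adjusted p = 0.0389). Nep3 was at 94.1 and 103 against 112, 113 and 119.8 CPM (log2 -0.22 ± 0.06, adjusted p = 0.0122).

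Nep2 and Nep4 had the opposite sign in heads. Nep4 was at 275 and 282 CPM in Aβ42 heads and 226, 236 and 237 CPM in control heads (log2 0.26 ± 0.06, adjusted p = 0.00688), and Nep2 at 50.6 and 53.5 against 45.1, 45.4 and 46.8 CPM (log2 0.19 ± 0.06, adjusted p = 0.0386). Brains and heads were separate library sets, and the difference between the tissues was not tested. Psn (log2 0.16, adjusted p = 0.0955), Ide (log2 0.12, adjusted p = 0.126) and Nep5 (log2 -0.23, adjusted p = 0.656) were not called. The head calls of Appl, Nep1 and Nep4 held without any single library. That of Nct was lost without control replicate 1, that of Nep3 without Aβ42 replicate 2 or control replicate 3, and those of tau and Nep2 without Aβ42 replicate 1 or any of the 3 controls (adjusted p 0.0506 to 0.17). Photoreceptor markers (34200 to 35000 against 48200 to 48400 CPM), neuronal markers (3900 to 4340 against 4990 to 5310 CPM) fat body markers (3310 to 3910 against 7070 to 9340 CPM), glial markers (1930 to 1980 against 2210 to 2380 CPM), muscle markers (1820 to 2000 against 2520 to 2740 CPM) and hemocyte markers (609 to 733 against 763 to 860 CPM) summed to lower levels in the Aβ42 heads. Of those tested 4 of 5 photoreceptor, 8 of 9 neuronal, 2 of 3 fat body, 7 of 9 glial, 3 of 5 muscle and 2 of 4 hemocyte markers were called lower and none higher, and their part was not tested.

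Among related genes, the other neprilysins of the fly, which include many Nepl genes, were called higher for 10 and lower for 2 of the 19 tested in Aβ42 heads, with a list median of 0.38 against 0.01 over all genes. Of all genes tested 18.5% were called higher and 17.5% lower in heads, and 16% and 15% in brains. Nep7 (log2 2.08, adjusted p = 7.458e-09) and Nepl17 (log2 1.28, adjusted p = 0.00288) moved most. In brains 1 was called higher (Nepl3, log2 1.35) and 2 lower (among them Nepl10, log2 -0.84) of 19. Of the 8 tau kinases and phosphatases, sgg was called lower in brains (log2 -0.22, adjusted p = 0.0451) and in heads (log2 -0.24, adjusted p = 0.0094), and Cdk5 was called higher in brains (log2 0.32, adjusted p = 0.0338). The microtubule-associated genes stai and Jupiter were called higher in both tissues (log2 0.47 and 0.45 in brains, 0.40 and 0.30 in heads).

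The m6A-IP/input ratio of a gene is the log2 difference between its level in the m6A-IP library and in the matched input. It rises with the share of a gene's RNA that the antibody recovered, and it is relative to the other genes of the library. It counts reads over all exons of a gene, so it does not show where m6A lies in a transcript, nor resolve a change confined to a part of it. In 5d control heads tau had a ratio of 1.90, 2.07 and 2.19 in the 3 pairs, a mean of 2.06 that was above that of 95.3% of the 11113 genes. Appl, at 1.12, 1.36 and 1.41, was above 84.9% of genes and Nep1 above 81.8%. The transcripts of tau, Appl and Nep1 were therefore those of the 10 most recovered by the antibody. Nep3 (64.9%), Nep4 (61.7%) and Nep2 (45.4%) were near the middle, and Nep5 (20.5%), Ide (19.8%), Psn (13.3%) and Nct (2.75%) were low. In the separate set of 6d control heads tau (94.6% of 10463 genes lower) and Appl (90.9%) were again the highest of the 10. Nct was not the lowest there, with a mean ratio of -0.43 that was above 25.1% of genes, while Psn was above 8.15%.

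With Mettl3 RNAi the tau ratio fell. At 5d it was 1.51, 1.54 and 1.62 in Mettl3 RNAi heads, all lower than the 3 controls (log2 difference -0.49 ± 0.11, adjusted p = 0.00238). At 34d it was 1.37, 1.38 and 1.53 against 1.95, 2.05 and 2.18 in controls (-0.75 ± 0.10, adjusted p = 3.323e-06). Both calls of tau held without any single pair of libraries. The ratio remained high among genes, above 91.7% of them at 5d and above 90.7% at 34d with Mettl3 RNAi. In a fit that ignored which input and m6A-IP came from 1 replicate, the 5d difference of tau did not pass (adjusted p = 0.191).

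The Appl ratio was not called at either age by edgeR. It was 1.56, 1.56 and 1.62 in 5d Mettl3 RNAi heads against 1.12, 1.36 and 1.41 in controls, higher in all 3 but not called (0.29 ± 0.12, adjusted p = 0.108), whereas DESeq2 called it higher (0.35, adjusted p = 0.0181). At 34d it was 1.21, 1.52 and 1.53 against 1.47 to 1.498, with overlap (-0.18 ± 0.11, adjusted p = 0.217).

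Altogether 3 of 10 members were called at 5d, 2 higher and 1 lower, against 19% of the 10666 genes tested, and 4 of 10 at 34d, 1 higher and 3 lower, against 32.3% of 10678. Nep4 was called higher at both ages, at 0.50, 0.61 and 0.66 against 0.15, 0.24 and 0.44 at 5d (0.32 ± 0.10, adjusted p = 0.0357) and at 0.16, 0.28 and 0.31 against -0.24, -0.21 and -0.16 at 34d (0.33 ± 0.10, adjusted p = 0.0122). The Nct ratio was -1.78, -1.54 and -1.53 in 5d Mettl3 RNAi heads against -2.23, -2.04 and -2.03 (0.49 ± 0.14, adjusted p = 0.0192) and was not called at 34d (0.01 ± 0.13, adjusted p = 0.98). At 34d Nep1 (-0.44 ± 0.11, adjusted p = 0.00472) and Nep3 (-0.26 ± 0.10, adjusted p = 0.0498) were called lower. At 5d Nct was lost without replicate 1 or 2 of either group and Nep4 without any pair other than control replicate 3 (adjusted p 0.054 to 0.176), and neither passed without the pairing (adjusted p = 0.41 and 0.35). At 34d Nep3 was lost without any pair other than Mettl3 RNAi replicate 1, Nep1 without control replicate 2 and Nep4 without control replicate 3 (adjusted p 0.066 to 0.312). The Nep3 call was also lost without the pairing, with DESeq2 and with the median-of-ratios scaling. It was lost with either other filter on low counts as well (adjusted p 0.0537 to 0.117 over these runs). Ide had a ratio of -0.95, -0.86 and -0.80 in 34d Mettl3 RNAi heads against -1.44, -1.24 and -1.10, all higher but not called (0.27 ± 0.11, adjusted p = 0.0616), and at 5d the groups overlapped (0.10, adjusted p = 0.62). Nep3 was lower without overlap at 5d (0.07, 0.17 and 0.19 against 0.39, 0.40 and 0.41) and did not pass (-0.26 ± 0.11, adjusted p = 0.107). Psn (0.07 at 5d and -0.01 at 34d), Nep2 (-0.18 and 0.02), Nep5 (-0.19 and -0.35) and, at 5d, Nep1 (-0.22) overlapped between the groups and were not called (adjusted p of 0.299 or more). Over all genes the share of calls that were higher at 5d was 26.5%, and 39.9% with the median-of-ratios scaling.

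**Figure D2:**
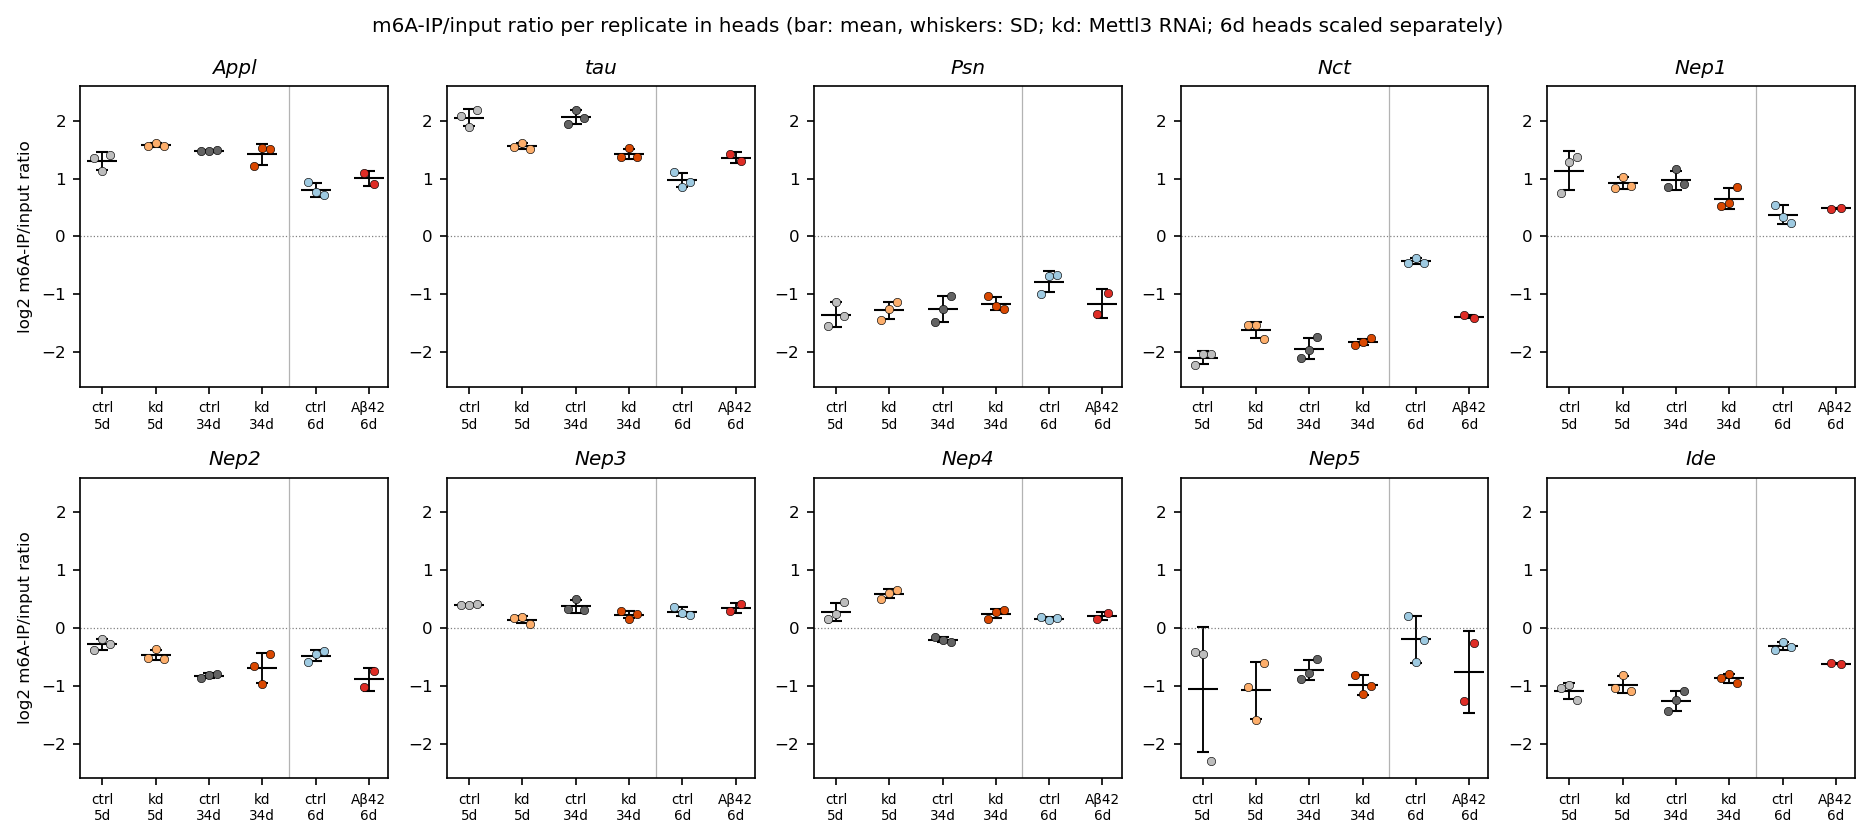
The log2 m6A-IP/input ratio of the member genes in each head pair: ctrl is control, kd is Mettl3 RNAi, and the 6d Aβ42 set stands right of the vertical line. Points are replicates, bars group means and whiskers the SD. The tau points with Mettl3 RNAi lie between 1.37 and 1.62, below all control points of the same set (1.90 to 2.19), while Nct, Psn and Ide lie below 0 throughout.

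Some related genes had lower ratios with Mettl3 RNAi, and those with the largest called changes are named. Of all genes tested 12.6% were called higher and 19.7% lower at 34d, and 14% lower at 5d. A single call in a list of 3 or 4 genes is therefore near what any list would give. At 34d 5 of 8 tau kinases and phosphatases were called lower and none higher, led by the phosphatase subunit tws (log2 -1.13, adjusted p = 3.216e-09) and by sgg (-0.72), and the list median was -0.31 against 0.09 over all genes. Of the 4 other secretases, the α-secretase homolog kuz (-1.0) and Meltrin (-0.79) were called lower. Of the 3 Appl adaptors Dab was called lower (-1.05), and of the 4 microtubule-associated genes chb was called lower (-0.88). The γ-secretase partners aph-1 (-0.04, adjusted p = 0.899) and pen-2 (-0.31, adjusted p = 0.597) were not called. Of the other neprilysins 7 of 20 were called higher and 1 lower. At 5d tws (-0.82), kuz (-0.50), Meltrin (-0.45), Dab (-0.68) and chb (-0.73) were also called lower.

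With Aβ42 the tau ratio was higher, at 1.30 and 1.43 in the 2 Aβ42 heads and 0.86, 0.95 and 1.12 in the 3 controls (0.39 ± 0.09, adjusted p = 0.00154). Nct moved most, at -1.41 and -1.36 against -0.46, -0.45 and -0.37 (-0.96 ± 0.11, adjusted p = 6.327e-07). The Nct groups were far apart, and the input level of Nct, as given above, differed the other way. In the 5d daGal4 control heads, a separate set, the mean Nct ratio was -2.10, lower than in the Aβ42 heads. The sets were not tested against each other. In all 5 of 10 members were called, 1 higher and 4 lower, against 24.4% of the 10463 genes tested. The others were Nep2 at -1.03 and -0.75 against -0.59, -0.45 and -0.40 (-0.41 ± 0.11, adjusted p = 0.00642), Ide at -0.63 and -0.61 against -0.38, -0.33 and -0.25 (-0.30 ± 0.09, adjusted p = 0.0098), and Psn at -1.34 and -0.99 against -0.99, -0.69 and -0.66 (-0.38 ± 0.12, adjusted p = 0.0222). Appl was at 0.91 and 1.10 against 0.71, 0.76 and 0.95 and was not called (0.20 ± 0.09, adjusted p = 0.116), although it passed with the median-of-ratios scaling (0.27, adjusted p = 0.0344). Nep1 (0.11, adjusted p = 0.447), Nep3 (0.07, adjusted p = 0.613), Nep4 (0.05, adjusted p = 0.74) and Nep5 (-0.60, adjusted p = 0.502) overlapped between the groups and were not called. The call of Nct held without any single pair. Without Aβ42 replicate 1 those of tau (0.32), Nep2 (-0.27), Psn (-0.21) and Ide were lost, Ide also without Aβ42 replicate 2 and Psn also without control replicate 2 or 3 (adjusted p 0.0526 to 0.42), and without the pairing of input and m6A-IP 1 member, Nct, was called. Over all genes 39.2% of calls were higher here, and 58.7% with the median-of-ratios scaling. All 3 lysosomal proteases were called lower, with cathD at -0.66, and 10 of 19 other neprilysins were called lower, none higher.

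With age the tau ratio of control heads went from 1.90, 2.07 and 2.19 at 5d to 1.95, 2.05 and 2.18 at 34d (0.01 ± 0.11, adjusted p = 0.954). The ranges of the 5d and 34d controls overlapped. Of 10 members 2 were called, both lower at 34d, against 23.7% of the 10750 genes tested. Nep2 went from -0.38, -0.28 and -0.19 to -0.87, -0.81 and -0.80 (-0.54 ± 0.12, adjusted p = 0.0017), and Nep4 from 0.15, 0.24 and 0.44 to -0.24, -0.21 and -0.16 (-0.47 ± 0.11, adjusted p = 0.00195). Psn (0.09), Nct (0.16), Nep1 (-0.16), Nep3 (-0.02), Nep5 (0.22) and Ide (-0.17) were not called (adjusted p of 0.319 or more). This comparison depended on the scaling: the median of all genes was -0.16 here and 0.02 with the median-of-ratios scaling, which shifts every gene by 0.18 and turns the share of higher calls from 24.7% to 71.1%. Relative to the median of all genes Nep2 and Nep4 remained lower, but Nep4 was not called under the other scaling (-0.30, adjusted p = 0.0809), and Appl was called higher there (0.36, adjusted p = 0.0387, against 0.19, adjusted p = 0.219). Without the pairing neither Nep2 (adjusted p = 0.0886) nor Nep4 (adjusted p = 0.141) passed.

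Between 5d and 34d the levels in control heads rose for 3 neprilysins, and no other member was called by edgeR. Nep4 was at 179, 187 and 213 CPM at 5d and 276, 286 and 306 CPM at 34d (log2 0.57 ± 0.10, adjusted p = 0.0027). Nep3 was at 53.9, 63.5 and 64.9 against 78.5, 80.8 and 85.4 CPM (0.41 ± 0.10, adjusted p = 0.0106), and Nep1 at 35.9, 39.0 and 47.7 against 50.4, 54.7 and 56.6 CPM (0.38 ± 0.11, adjusted p = 0.0264). All 3 were higher at 34d without overlap. These 3 of 10 compare with 51.5% of the 10512 genes tested.

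Appl was at 687, 778 and 789.8 CPM at 5d and 875, 905 and 915 CPM at 34d, also without overlap, but did not pass (0.24 ± 0.10, adjusted p = 0.092), whereas DESeq2 called it higher (0.27, adjusted p = 0.0243). The tau level was 245, 255 and 302 against 240.3, 252 and 256 CPM (-0.12 ± 0.10, adjusted p = 0.366). Psn (-0.11), Nct (0.10), Nep2 (0.13), Nep5 (0.59) and Ide (0.02) had adjusted p values of 0.0724 or more. The γ-secretase partners aph-1 (-0.44, adjusted p = 0.0174) and pen-2 (-0.86, adjusted p = 0.0134) were called lower at 34d, and their difference from Psn and Nct was not tested. Of the other neprilysins 13 of 19 were called higher and 1 lower, with Nepl15 (2.54) and Nepl6 (2.38) the largest. The calls of Nep3 and Nep4 held without any single library, and that of Nep1 was lost without control 34d replicate 1 or 3 or control 5d replicate 2 or 3 (adjusted p 0.0634 to 0.0962). Muscle markers summed to 4330 to 8940 CPM at 5d and 1780 to 1820 CPM at 34d, and photoreceptor markers to 29800 to 45500 against 51800 to 53200 CPM. Fat body markers summed to 6910 to 8800 CPM at 5d and 4980 to 5770 CPM at 34d, glial markers to 2200 to 2990 against 1870 to 1940 CPM and hemocyte markers to 940 to 1410 against 626 to 691 CPM. All 5 muscle markers were called lower, as were 3 of 4 fat body (list median -3.82), 3 of 9 glial, 2 of 9 neuronal and 2 of 4 hemocyte markers, while 1 fat body, 4 glial, 1 neuronal, 2 hemocyte and 1 of 5 photoreceptor markers were called higher, and their part was not tested.

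**Figure D3:**
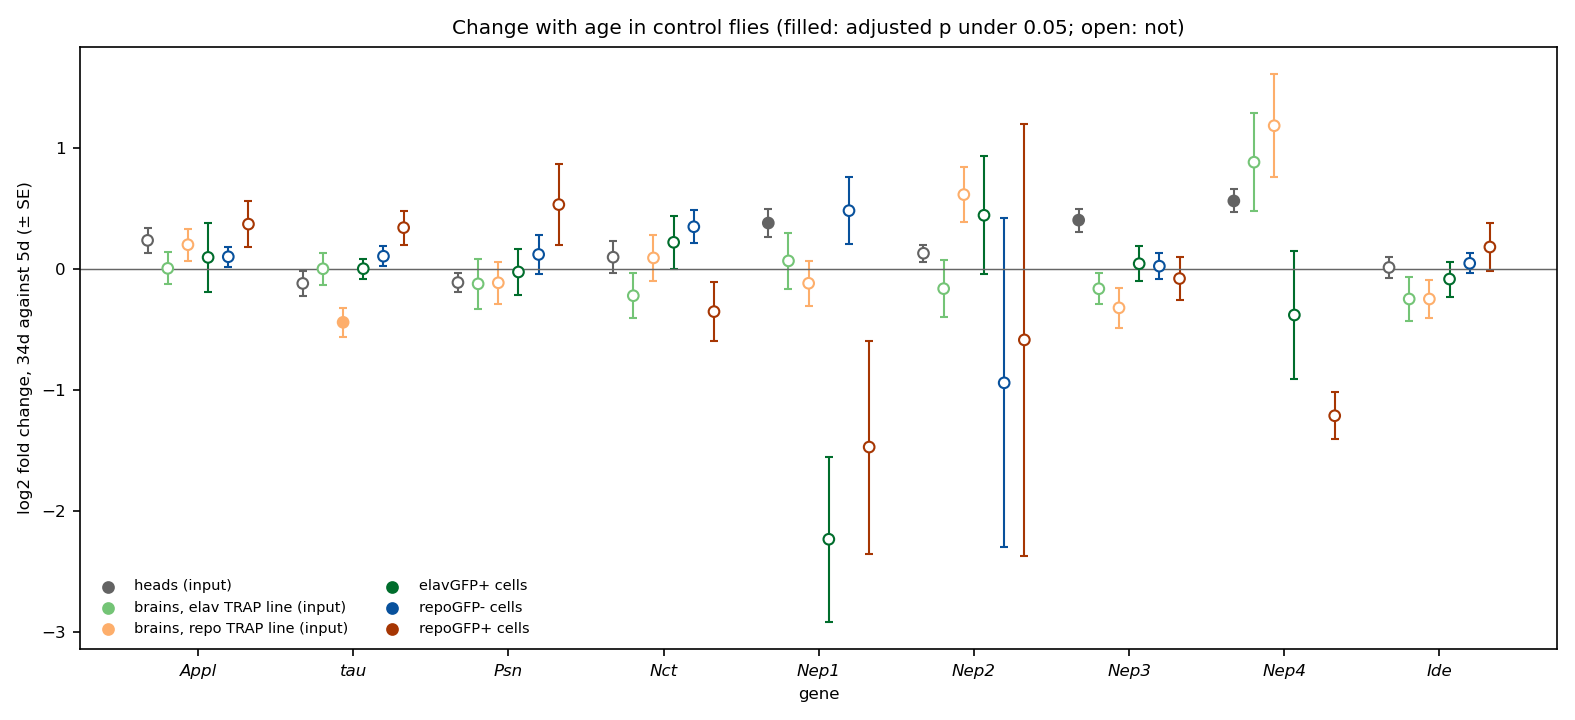
The log2 fold change of each member between 34d and 5d control samples, with the standard error as whiskers, in heads, TRAP input brains and sorted cells (filled points passed the test, and Nep5 is left out). Nep4 is higher at 34d in heads (0.57) and has the opposite sign in repoGFP+ cells (-1.21), where it was not called in the main fit.

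In the TRAP inputs, which are brain lysates, 1 member in all was called with age. In the inputs of the elav line 0 of 9 members were called, by edgeR and by DESeq2, with 0 at an unadjusted p below 0.05, against 12.9% of the 9462 genes. The 5d inputs of that line differed widely among themselves. Replicate 1 had a chi-square per gene of 219 against replicate 2 and 304 against replicate 3, the latter the highest of all within-group pairs. Changes of moderate size could therefore be missed there. In the inputs of the repo line 1 of 9 was called, tau, which was lower at 34d (-0.44 ± 0.12, adjusted p = 0.0145), against 25.3% of the 9379 genes. In the inputs of the elav line the tau difference was 0.00 ± 0.13 (adjusted p = 0.99), and the tau call was lost without 34d repo input replicate 1 (adjusted p = 0.0573). In the repo inputs the glial markers summed to 1650 to 1790 CPM at 34d and 2020 to 2890 CPM at 5d, with 4 of 9 called lower (list median -1.07), and 2 of 5 photoreceptor, 1 of 5 muscle, 1 of 2 fat body, 2 of 4 hemocyte and 1 of 9 neuronal markers tested were called lower too (1 hemocyte and 1 neuronal marker higher). Their part in the tau difference was not tested. Nep4 averaged 36.8 ± 8.06 CPM (SD, n = 4) at 5d and 83.0 ± 39.7 CPM at 34d in the repo line (1.19 ± 0.42, adjusted p = 0.0866) and 60.5 ± 17.8 against 110.2 ± 62.8 CPM in the elav line (0.89 ± 0.40, adjusted p = 0.203), neither called by edgeR, while DESeq2 called Nep4 (adjusted p = 0.0283) and Nep2 (0.62, adjusted p = 0.0473) higher in the repo line.

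Among sorted cells no member was called with age in the main edgeR fits, while alternative fits called Nep1 and Nep4. In elavGFP+ cells 0 of 10 were called (4.35% of 10953 genes; 1 member at an unadjusted p below 0.05 and 0 by DESeq2). Nep1 was at 2.99, 4.81, 19.9 and 37.4 CPM at 34d against 67.8, 71.7 and 89.1 CPM at 5d, a complete separation with a wide spread among the 34d libraries (-2.23 ± 0.68, adjusted p = 0.105). With 1 factor of the RUVr approach, which the study used for sorted cells, Nep1 was called lower (-2.83, adjusted p = 0.00374). In repoGFP+ cells 0 of 9 were called (0.12% of 9133 genes; 2 at an unadjusted p below 0.05 and 1 by DESeq2). Nep4 was at 98.2, 130 and 134 CPM at 34d and at 273, 276 and 348 CPM at 5d, again without overlap (-1.21 ± 0.19, adjusted p = 0.0577). It passed in DESeq2 (adjusted p = 2.454e-06), with 1 RUVr factor (adjusted p = 0.0375) and without the filter on low counts (adjusted p = 0.012). Glial markers summed to 3760 to 6190 CPM in those 34d cells and 8710 to 14500 CPM at 5d, and their part in the Nep4 values was not tested. In repoGFP- cells 0 of 8 members were called (1.2% of 8768 genes; 1 at an unadjusted p below 0.05 and 0 by DESeq2). The difference in age change between repoGFP+ and repoGFP- cells gave 0 calls of 9 (0.0305% of 9834 genes; 1 at an unadjusted p below 0.05 and 0 by DESeq2).

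Appl and tau were high in all sorted fractions. At 5d tau was at 967, 1003 and 1029 CPM in elavGFP+ cells, 704, 764 and 769 CPM in repoGFP- cells and 643, 649 and 698 CPM in repoGFP+ cells. The repoGFP+ values were lower than the repoGFP- values without overlap, yet by a small step that was not called (-0.19 ± 0.09, adjusted p = 0.241). Appl was at 1798, 1973 and 2495 CPM in repoGFP+ and 2784, 3214 and 3232 CPM in repoGFP- cells (-0.57 ± 0.14, adjusted p = 0.0301). Neuronal markers were 7640 to 9690 CPM in the same repoGFP+ cells against 10200 to 12600 CPM, and whether neuronal RNA in this gate sets the tau and Appl values was not tested. Ide was at 248, 252 and 269 against 343, 350.5 and 368 CPM (-0.48 ± 0.10, adjusted p = 0.0172).

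Nep4 was the member that the sort divided most. It was at 273, 276 and 348 CPM in 5d repoGFP+ cells and at 0, 0.069 and 1.43 CPM in repoGFP- cells, which stand for 0, 1 and 19 counts. The fitted difference was 9.27 ± 0.94 on the log2 scale (adjusted p = 0.000706) and ranged from 8.64 to 12.8 when single libraries were left out, the highest without repoGFP- replicate 3, which holds 19 of those counts. At 34d Nep4 was at 98.2, 130 and 134 CPM against 0, 0.289 and 0.471 CPM (8.80 ± 0.67, adjusted p = 0.000695). Markers of other classes were also higher in 5d repoGFP+ than repoGFP- cells: hemocyte markers summed to 342 to 772 against 0.694 to 7.04 CPM, fat body markers to 204 to 308 against 6.25 to 17.6 CPM and muscle markers to 3.53 to 7.5 against 1.13 to 2.27 CPM, and the 2 hemocyte, 1 fat body and 2 muscle markers tested were all called higher. Their part in the Nep4 difference was not tested. In elavGFP+ cells, which also held glial markers, Nep4 was at 6.51, 12.8 and 27.1 CPM at 5d. Nep1 went the other way, at 18.8, 19.4 and 37.8 CPM in repoGFP+ and 40.6, 68.6 and 70.1 CPM in repoGFP- cells at 5d (-1.26 ± 0.36, adjusted p = 0.053) and at 2.05, 3.39 and 19.8 against 67.6, 69.1 and 114 CPM at 34d (-3.32 ± 0.87, adjusted p = 0.0731). Neither passed, though the groups were separate at both ages and DESeq2 called both. Nep2 had no stable level, with 0, 9.08 and 44.4 CPM in the 3 repoGFP+ and 6.69, 86.4 and 134 CPM in the 3 repoGFP- libraries at 5d.

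In all 3 of 9 members were called at 5d, 1 higher and 2 lower in repoGFP+ cells, against 18.1% of the 9181 genes, and 1 of 9, Nep4, at 34d, against 6.69% of 9027. At 34d Appl (-0.41, adjusted p = 0.196) and Ide (-0.45, adjusted p = 0.228) had the sign of 5d without passing. The Appl call at 5d was lost in 5 of 6 fits leaving out a library, all but that without repoGFP+ replicate 2, and the Ide call without any of the 3 repoGFP- libraries (adjusted p 0.054 to 0.101), while Nep4 held in all 6 at each age. Psn (-0.30), Nct (0.35) and Nep3 (0.04) did not pass at 5d. Of the other neprilysins 3 of 8 tested were called higher in repoGFP+ cells, among them Nepl5 (8.37) and Nepl15 (6.94), and 1 lower. Cdk5alpha (-0.54) and sgg (-0.36), from the list of tau kinases and phosphatases, and the microtubule-associated genes stai (-0.60) and Jupiter (-0.50) were called lower.

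**Figure D4:**
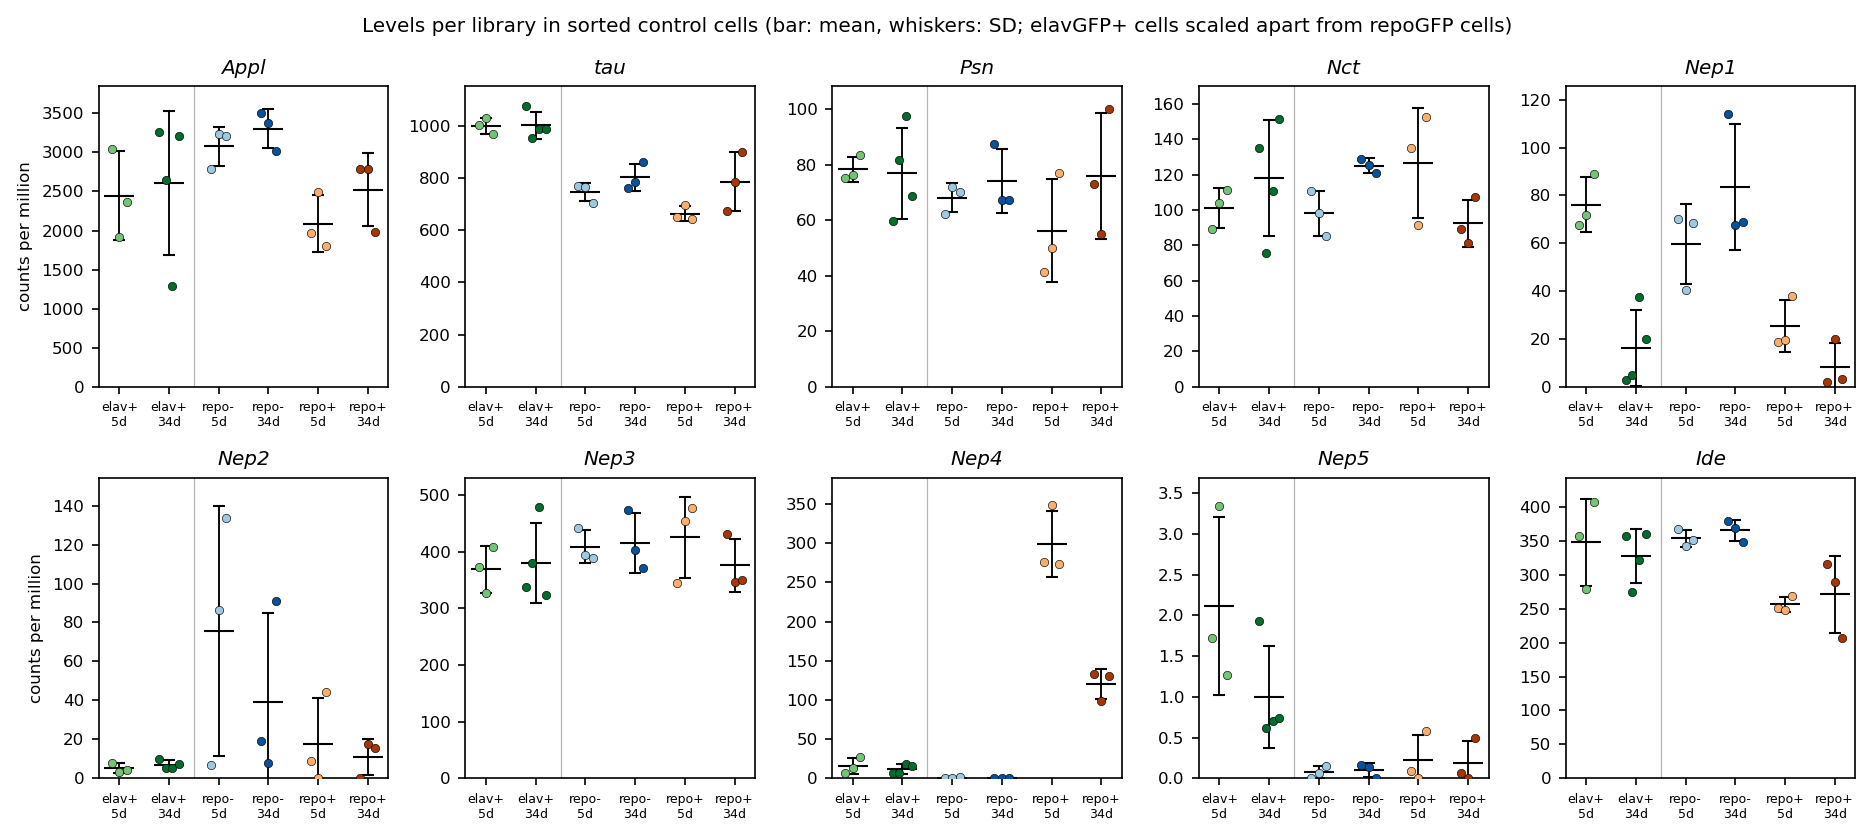
Level in CPM (linear axis from 0) of the member genes in control elavGFP+, repoGFP- and repoGFP+ libraries at 5d and 34d, with 1 point per library, the group mean as a bar and the SD as whiskers (elavGFP+ libraries were scaled apart). Nep4 is at 98.2 to 348 CPM in repoGFP+ cells and at 1.43 CPM or less in repoGFP- cells, while tau lies between 643 and 1075 CPM in all fractions.

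The TRAP-IP/input ratio, which compares the RNA on tagged ribosomes with the whole brain lysate, again separated Nep4. At 5d Nep4 had a log2 ratio of 2.24, 2.27, 2.27 and 2.73 in the 4 glial (repo) pairs and of -1.31, -0.86 and -0.30 in the 3 neuronal (elav) pairs. The difference was 3.20 ± 0.26 (adjusted p = 3.173e-07), with every glial pair above every neuronal pair. Nep2 was at 1.497, 1.99, 2.10 and 2.94 against 0.03, 0.36 and 0.67 (1.80 ± 0.38, adjusted p = 0.00254), also without overlap. Nep1 was lower in glial than in neuronal pairs, at -1.05, -0.98, -0.92 and -0.36 against -0.86, 0.96 and 1.00 (-1.35 ± 0.41, adjusted p = 0.0234). Here 1 neuronal pair, that of the shallowest library, was as low as the glial ones, and without that pair the difference was -1.82. The Nep1 call was lost without glial replicate 1, 2 or 4 or neuronal replicate 2 or 3 (adjusted p 0.0639 to 0.138). The calls of Nep2 and Nep4 held without any single pair.

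The ratio of tau was -0.21, -0.15, -0.14 and 0.10 in glial and -0.61, -0.54 and -0.32 in neuronal pairs at 5d, which was not called (0.39 ± 0.20, adjusted p = 0.176), and that of Appl overlapped between the drivers (0.21 ± 0.23, adjusted p = 0.545). Neither transcript was shown to be enriched on the tagged ribosomes of neurons relative to those of glia. Of the glial markers 9 of 9 were called higher in the glial pairs, with a median of 3.02, and of the neuronal markers 1 of 9 higher and none lower. The contrast thus did not set the neuronal markers apart. For TRAP pairs, neuronal or neurons therefore stands for the elav driver, and glial or glia for the repo driver, here and below. Of the other marker lists 2 of 4 hemocyte markers were called higher and 4 of 5 photoreceptor and 1 of 4 fat body markers lower, and their part was not tested. Psn (-0.69), Nct (0.39), Nep3 (0.61), Nep5 (-2.10) and Ide (0.50) were not called at 5d (adjusted p of 0.146 or more). Over the members 3 of 10 were called at 5d, 2 higher and 1 lower in glia, against 24.7% of the 10192 genes. At 34d Nep4 alone of 9 was called, at -0.42, 0.55, 1.30 and 2.08 against -2.35, -1.91, -1.45 and -0.89 (2.53 ± 0.51, adjusted p = 0.0075), against 15.6% of the 10034 genes. The median of all genes was -0.16 at 34d. Ide (-0.95, adjusted p = 0.0749), Nct (-0.97, adjusted p = 0.0836) and Nep1 (-1.02, adjusted p = 0.109) were lower on average in the glial pairs without passing. Appl was lower in every glial pair and did not pass either (-0.35, adjusted p = 0.116).

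**Figure D5:**
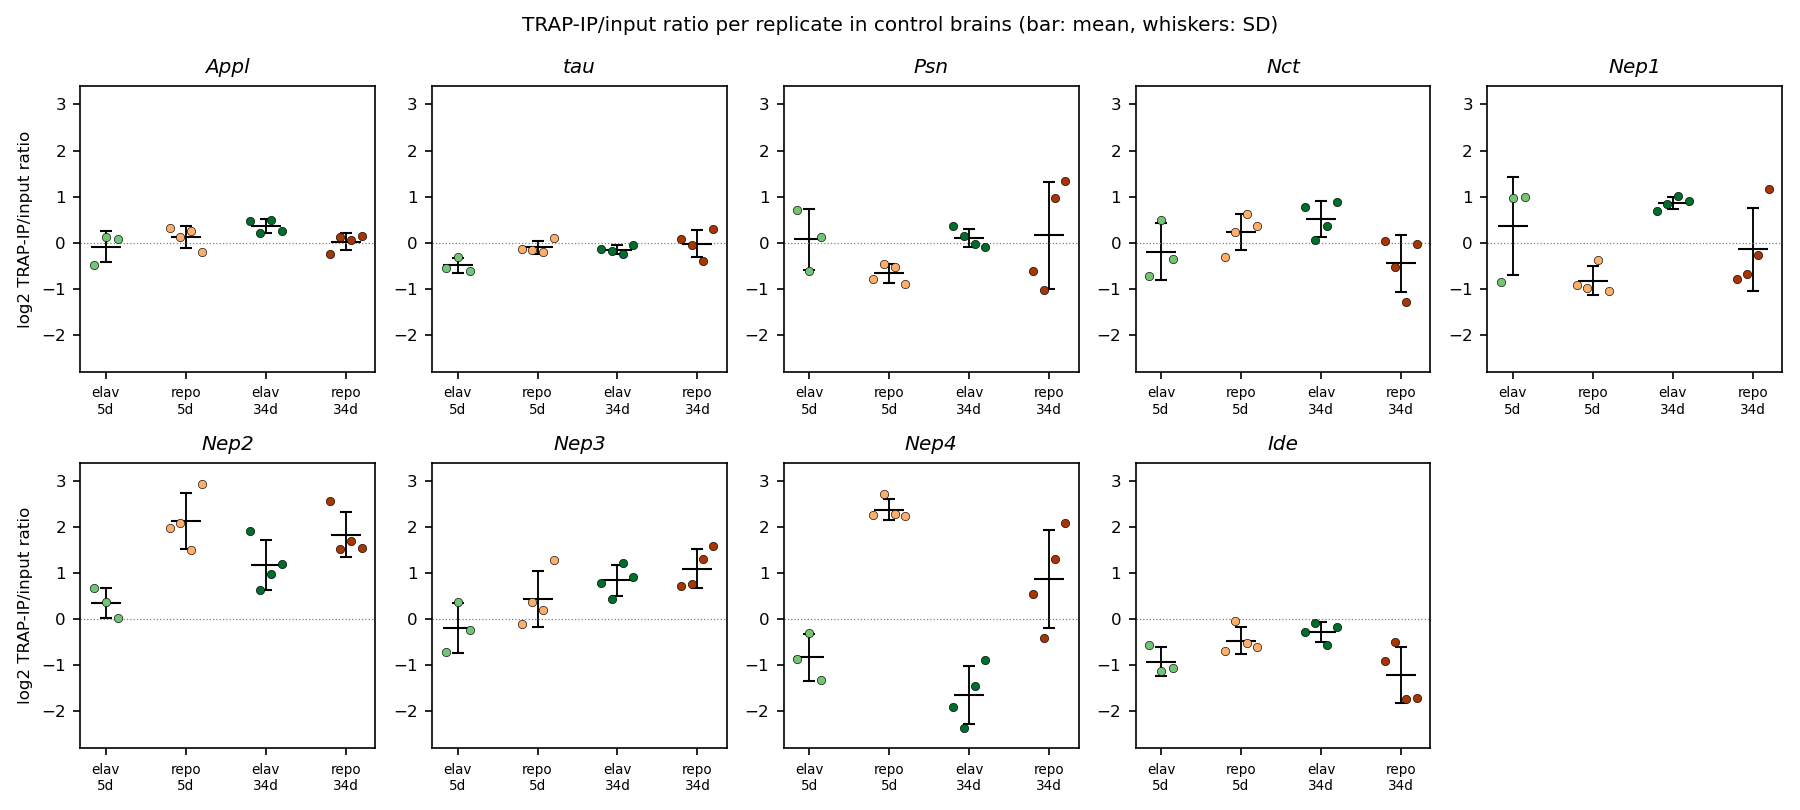
The log2 TRAP-IP/input ratio of the member genes in control neuronal (elav) and glial (repo) pairs at 5d and 34d, with 1 point per pair, the group mean as a bar and the SD as whiskers (Nep5, near 0 counts, is left out). At 5d the 4 glial Nep4 points lie between 2.24 and 2.73 and the 3 neuronal points between -1.31 and -0.30, whereas tau stays between -0.61 and 0.29 in both drivers at both ages.

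Of the member levels compared with Mettl3 RNAi, those called were of Appl, Nep3, Nep5 and Ide in 34d heads. In 34d heads Appl was at 1115, 1179 and 1212 CPM with Mettl3 RNAi and 875, 905 and 915 CPM in controls (0.37 ± 0.04, adjusted p = 3.341e-06), with no overlap and with the call kept without any single library. Nep5 was at 2.40, 2.71 and 3.62 against 1.40, 1.66 and 2.11 CPM (0.75 ± 0.21, adjusted p = 0.00683), a call lost without Mettl3 RNAi replicate 3 (adjusted p = 0.0507). Ide (93.1, 95.4 and 95.5 against 84.1, 87.6 and 88.7 CPM, adjusted p = 0.0338) and Nep3 (86.0, 90.5 and 91.3 against 78.5, 80.8 and 85.4 CPM, adjusted p = 0.0402) were called higher by 0.11 and 0.12, and each was lost without replicate 1 or 2 of either group (adjusted p 0.0731 to 0.185). For tau the level was 226, 234 and 239.5 against 240.3, 252 and 256 CPM, lower in every library but not called (-0.11 ± 0.04, adjusted p = 0.0635).

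These 4 of 10 members, all higher, compare with 40.8% of the 10433 genes tested. All 3 Appl adaptors were called higher too, with Dab at 0.37 and X11Lbeta at 0.26, and so were kuz (0.44) and Meltrin (0.50) of the other secretases. Neuronal markers summed to 4630 to 4830 CPM in the Mettl3 RNAi heads and 3640 to 3900 CPM in the controls, with 8 of 9 called higher, while 3 of 9 glial, 2 of 5 photoreceptor, 1 of 5 muscle and 1 of 4 fat body markers were called higher and 3 of 9 glial, 3 of 5 muscle and 2 of 4 hemocyte markers lower, and their part in the member levels was not tested. Psn, Nct, Nep1, Nep2 and Nep4 differed by -0.05 to 0.10 and were not called (adjusted p of 0.191 or more). At 5d 0 of 10 members were called in heads (0.173% of 10429 genes), with 0 at an unadjusted p below 0.05 and 0 by DESeq2, and the Appl difference was 0.07 ± 0.11 (adjusted p = 0.836).

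In 34d elavGFP+ cells with Mettl3 RNAi 0 of 10 members were called (0.0366% of 10928 genes; 3 at an unadjusted p below 0.05 and 1 by DESeq2), and in 34d repoGFP+ cells 0 of 9 (0% of 9124 genes; 1 at an unadjusted p below 0.05 and 0 by DESeq2). The unadjusted difference in repoGFP+ cells was that of Nep4, at 112, 298 and 397 CPM against 98.2, 130 and 134 CPM, 2 of 3 libraries being above all controls (1.09 ± 0.41, adjusted p = 0.647). Glial markers summed to 5020 to 9670 CPM in these cells against 3760 to 6190 CPM in controls, with a list median of 0.85 and 3 of 9 at an unadjusted p below 0.05, and their part was not tested. Appl was at 1879, 1951, 2008 and 3115 CPM in elavGFP+ cells with Mettl3 RNAi against 1287, 2652, 3214 and 3263 CPM in controls, with wide overlap (-0.21 ± 0.26, adjusted p = 0.896).

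The TRAP-IP/input ratio was not called changed by Mettl3 RNAi for any member. In neurons 0 of 9 were called at 5d (1.54% of 10195 genes; 2 at an unadjusted p below 0.05 and 1 by DESeq2) and 0 of 9 at 34d (0% of 10110 genes; 0 at an unadjusted p below 0.05 and 0 by DESeq2). In glia 0 of 9 were called at 5d (0.653% of 10261 genes; 1 at an unadjusted p below 0.05 and 1 by DESeq2) and 0 of 9 at 34d (0% of 9946 genes; 2 at an unadjusted p below 0.05 and 0 by DESeq2). Appl was the member closest to the threshold with both drivers at 5d. In the elav pairs its ratio was 0.36, 0.79, 0.86 and 0.96 with Mettl3 RNAi and -0.47, 0.08 and 0.13 in controls, a separation of 0.85 ± 0.23 (adjusted p = 0.0772). In the repo pairs it was -0.60, -0.43 and -0.26 against -0.20, 0.13, 0.26 and 0.31, a separation the other way of -0.58 ± 0.16 (adjusted p = 0.08). DESeq2 called both (adjusted p = 0.0139 and 0.0188), and the difference between the drivers was not tested. The ratios of the 9 neuronal markers moved with Appl in both: their median difference was 0.66 in neurons (5 at an unadjusted p below 0.05, 0 called) and -0.64 in glia (8 at an unadjusted p below 0.05, 1 called lower), and their part was not tested. The tau ratio did not pass in either (0.26, adjusted p = 0.586, and 0.30, adjusted p = 0.393).

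The genes whose mean levels over the 12 sorted groups, of both RNAi genotypes, followed Appl most closely were Lrp4 (Pearson r = 0.967), CG15894 (0.938) and Lnk (0.937), out of 7109 genes with a mean of at least 10 CPM. For tau they were bip2 (0.978), pHCl-1 (0.975) and CG15803 (0.964). The groups share gates and library sets, so these values describe the pattern only.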

How the data were processed

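The authors deposited 1 table of raw counts per gene for all libraries, and no normalized values were used. Per the study's methods, reads were trimmed with Trim Galore, aligned to dm6 with STAR 2.7.3a, stripped of unmapped and improper pairs and counted over FlyBase exons with the union mode of summarizeOverlaps. Head, brain, sorted-cell and TRAP libraries formed separate sets, and tests were run within a set only. Head and TRAP libraries were made with the same kind of kit (SMARTer Stranded Total RNA-Seq) and sorted-cell libraries with SMART-seq.

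Counts were tested in R 4.3.3 with edgeR 4.0.16 (quasi-likelihood, robust, TMM scaling, filterByExpr) on all genes, with Benjamini-Hochberg adjustment and a threshold of 0.05. Printed CPM use TMM-scaled library sizes, and log2 ratios use a prior count of 2. Standard errors (SE) were derived from the test, as the absolute log2 fold change divided by the square root of its F value. Ratio comparisons paired the m6A-IP or TRAP-IP with the input of the same replicate, since both came from 1 RNA sample or lysate. Same-numbered deviations correlated at 0.059 to 0.74. Alternatives were DESeq2 1.42.0, RLE (median-of-ratios) scaling, no filter, a mean count of at least 50, 1 RUVr factor in sorted cells, the replicate block and leaving out each replicate. Within-group library pairs (170) all differed by more than sampling noise (chi-square per gene 5.9 to 304). The model code was tested on simulated data.

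The rule for named genes covered all 10 members in every comparison, and where a member is not printed for a comparison it was not called there or was too low to be tested. From lists of related genes up to 2 called genes with the largest change are named, as well as aph-1 and pen-2, and for Appl and tau the 3 genes of most similar pattern. The members and lists were chosen with earlier results of these data known. Marker lists covered neurons, glia, photoreceptors, muscle, fat body and hemocytes. No sequences are shown.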

Additional observations from a re-analysis of the deposited data

Results flagged for a closer look

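In groups of 4 samples, 9 of 146 sets of member values had 1 sample far from the others by Dixon's test, where chance gives about 1 in 20. Smaller groups, which include all head, brain and repoGFP groups, were not screened. In 34d Mettl3 RNAi elavGFP+ cells Appl was at 3115 CPM in replicate 1 and at most 2008 CPM in the others, and Nep5 was at 5.62 CPM in replicate 4 and at most 1.364 CPM in the others. In 34d control elavGFP+ cells Nep5 was at 1.938 CPM in replicate 1 and at most 0.7422 CPM in the others. In the 34d Mettl3 RNAi repo TRAP inputs replicate 4 was high for Nct (29.98 CPM, others 24.25 CPM or less) and low for Nep3 (46.3 CPM, others 56.77 CPM or more).

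In the 5d control repo TRAP inputs replicate 3 was low for Nep1 (20.05 CPM, others 26.11 CPM or more) and high for Nep2 (11.83 CPM, others 7.935 CPM or less). Of the TRAP-IP/input log2 ratios of control glia, Nep2 at 34d was 2.562 in replicate 1 and at most 1.702 in the others, and Nep4 at 5d was 2.726 in replicate 2 and at most 2.275 in the others.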

How the results depend on the processing

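Over the 25 comparisons 44 member changes were called, and none changed sign under any alternative run. DESeq2 lost 8 of the 44, RLE scaling 4, no filter 8 and a mean count of at least 50 lost 2, while 1 RUVr factor lost 0 of the 4 it was run on. Leaving out single replicates lost the call in 77 of 262 fits, over 26 of the 44. Where the cause of a lost call is not stated, it was not tested.

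The sources used here do not say whether replicate numbers pair samples between groups. Same-numbered deviations did not all correlate above 0.1, and the main tests between groups left the numbers out. For repoGFP+ against repoGFP- cells at 5d a replicate block lost Ide (adjusted p = 0.0545) and gained Nep1 (-1.29, adjusted p = 0.0491). A replicate block lost 7 of 26 calls, and in 34d heads with Mettl3 RNAi it left 2 called members of 4. For the paired ratios, no replicate block lost 10 of 18 calls: 1 member was called with Aβ42 (5 with pairs), 0 with Mettl3 RNAi at 5d (3) and 0 with age (2).

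DESeq2 added Appl to the calls for the m6A ratio with Mettl3 RNAi at 5d (4, against 3) and for age in heads (4, against 3). It added Nep3 to those for Aβ42 brains. Nep2 was dropped from the calls for Aβ42 heads, and Nep3 from those for the m6A ratio with Mettl3 RNAi at 34d. With DESeq2 the number of called members was 3 for the m6A ratio with Aβ42 (5), 3 for age in repo TRAP inputs (1), 2 for repoGFP+ against repoGFP- cells at 34d (1), 2 for glial against neuronal TRAP at 34d (1), 2 for Mettl3 RNAi heads at 34d (4), and 1 instead of 0 for age in repoGFP+ cells, Mettl3 RNAi in elavGFP+ cells, and the TRAP ratio with Mettl3 RNAi at 5d in neurons and in glia. No filter gave 1 for age in repoGFP+ cells and for both 5d TRAP ratios with Mettl3 RNAi, 0 for glial against neuronal TRAP at 34d and 2 for Mettl3 RNAi heads at 34d. RUVr gave 1 for age in elavGFP+ cells (Nep1), 1 for age in repoGFP+ cells (Nep4) and 3 for repoGFP+ against repoGFP- cells at 34d (Nep4, Appl and Ide).

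Leaving out 1 replicate gave 2 to 9 called members for Aβ42 brains, 4 to 6 for Aβ42 heads, 1 to 7 for the m6A ratio with Aβ42, 2 to 5 for age in heads, 0 to 2 for age in repo TRAP inputs, 0 to 1 for age in elavGFP+ cells, 1 to 3 and 1 to 2 for repoGFP+ against repoGFP- cells at 5d and 34d, 1 to 3 for glial against neuronal TRAP at 34d, 1 to 3 and 2 to 4 for the m6A ratio with Mettl3 RNAi at 5d and 34d, 2 to 4 for Mettl3 RNAi heads at 34d, and 0 to 2 and 0 to 1 for the 5d TRAP ratio with Mettl3 RNAi in neurons and glia. Where this left 2 libraries or fewer in a group, its spread was taken from the other groups. Nep5 (2 to 4 counts per brain library) could not be tested at this depth in brains.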
